A study of Mus musculus with 33 samples.

Results

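The clustered protocadherin genes are 3 neighbouring gene arrays on mouse chromosome 18, called alpha, beta and gamma. The members described here are the protein-coding genes of that chromosome, in the RefSeq annotation of GRCm38.p6, whose symbols are Pcdha, Pcdhb, Pcdhga, Pcdhgb or Pcdhgc followed by a number, with the c-type genes Pcdhac1 and Pcdhac2. They are 57 of 20540 protein-coding genes on the 19 autosomes mapped, with 14 in the alpha cluster, 22 in the beta cluster and 21 in the gamma cluster. Pcdhgb8, a transcribed pseudogene in this annotation, is not a member.

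Protocadherins are cell-surface proteins of the cadherin superfamily, and those of the clusters bind the same isoform on a neighbouring cell. Each alpha and gamma gene has its own promoter and its own large first exon, which is spliced to small exons shared by the whole cluster. Beta genes are short and do not share such exons. Neurons switch on different sets of these promoters, a choice that involves DNA methylation, the insulator protein CTCF, cohesin and distant enhancers, and the set on the surface lets a neuron tell its own branches from those of others. The c-type genes are known for expression that is less subject to this random choice.

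The study used CUT&RUN, in which an antibody guides a nuclease to its target in unfixed cells and the cut DNA is sequenced, against H3K9me2, a histone mark of repressed chromatin, and against Lamin B1, a protein of the nuclear lamina. All sources had the C57BL/6 background with no modified allele. They were whole hearts and right forebrain lobes of E11.5 embryos, pooled within litters, and an established mouse embryonic stem (mES) cell line that was first plated on inactivated mouse embryonic fibroblasts and then moved to medium with LIF and the inhibitors PD0325901 and CHIR99021. H3K9me2 and Lamin B1 had 3 libraries each per source, and IgG controls made up the rest of the 33 libraries. Both tissues are mixtures of cell types, and the mES cells are 1 line.

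The measurements are 9 lists of domains, 3 per source, on the mm10 build. They place each bin of 10 kb in a lamina-associated domain (LAD), in a KOD or in an open domain. KOD is the depositors' own label, which the sources used here do not spell out. Each list pools its replicates and holds no score, so no value below has a replicate error or a test, the sequencing depth behind a domain is unknown, and differences are descriptions of 1 map per source. Bins in none of the 3 lists of a source are called unlisted. Over chromosomes 1 to 19 unlisted bins made up 7.17% of the map in mES cells, 7.71% in forebrain and 11.6% in heart. Expression was not measured, so the labelled tissues could not be checked against marker genes, and a state does not say whether a gene was active.

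The locus from the lower end of Pcdha1 to the upper end of Pcdhgc5 was almost wholly open in mES cells, was mostly open in forebrain with a pair of short LADs, and was a mixture of LADs, unlisted bins and open stretches in heart. The gamma cluster was open in every source. In the alpha and beta clusters, in both intervals between clusters and in the left flank the heart map had fewer open bins than the other two. The locus spans chromosome 18 from 36930285 to 37841873, 912 kb, and covers 92 bins. Of these 84 were open in mES cells, 74 in forebrain and 36 in heart. LADs took up 0 bins in mES cells, 9 in forebrain and 21 in heart, and unlisted bins numbered 8, 8 and 35 in the same order. In heart 22.8% of locus bins were LAD, 39.1% open and 38% unlisted, beside 40.1%, 29.8% and 11.6% of the whole map. In forebrain 9.78% were LAD and 80.4% open, beside 44% and 31.1%. In mES cells 91.3% were open, beside 31.7%, and LADs covered 43.6% of that map. KOD was almost missing, with 1 bin in forebrain and 0 in the other sources, whereas KODs covered 17.5% of the whole mES map, 18.5% of that of heart and 17.2% of that of forebrain.

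**Figure D1:**
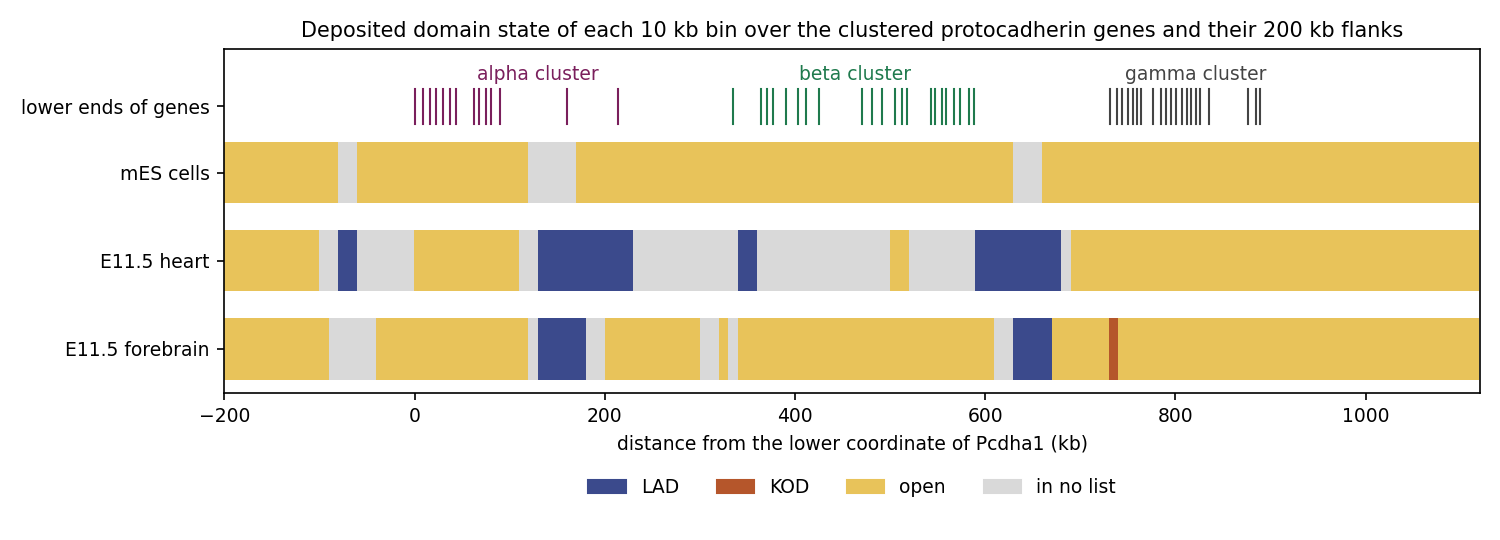
State of each 10 kb bin along the locus and its 200 kb flanks, in kb from the lower end of Pcdha1, for the pooled map of each source, with the lower ends of the 57 genes as ticks. LADs (dark blue) cover 21 locus bins in heart and 9 in forebrain, and the right part, with the gamma cluster, is open throughout apart from 1 KOD bin in forebrain.

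Each gene was given the state with the greatest share of its body. All 57 members were open in mES cells, where 63.9% of all protein-coding genes were open, 16.6% LAD and 6.48% unlisted. In forebrain 56 members were open and 1, Pcdhb1, was unlisted, beside 57.7% open, 6.65% unlisted and 16.6% LAD over all genes. In heart 26 members were open, 20 were unlisted and 11 were LAD, beside 58.4%, 9.44% and 14.3% of all genes. No member was KOD in any source by this measure, beside 13% of all genes for mES cells, 17.9% for heart and 19% for forebrain.

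**Figure D2:**
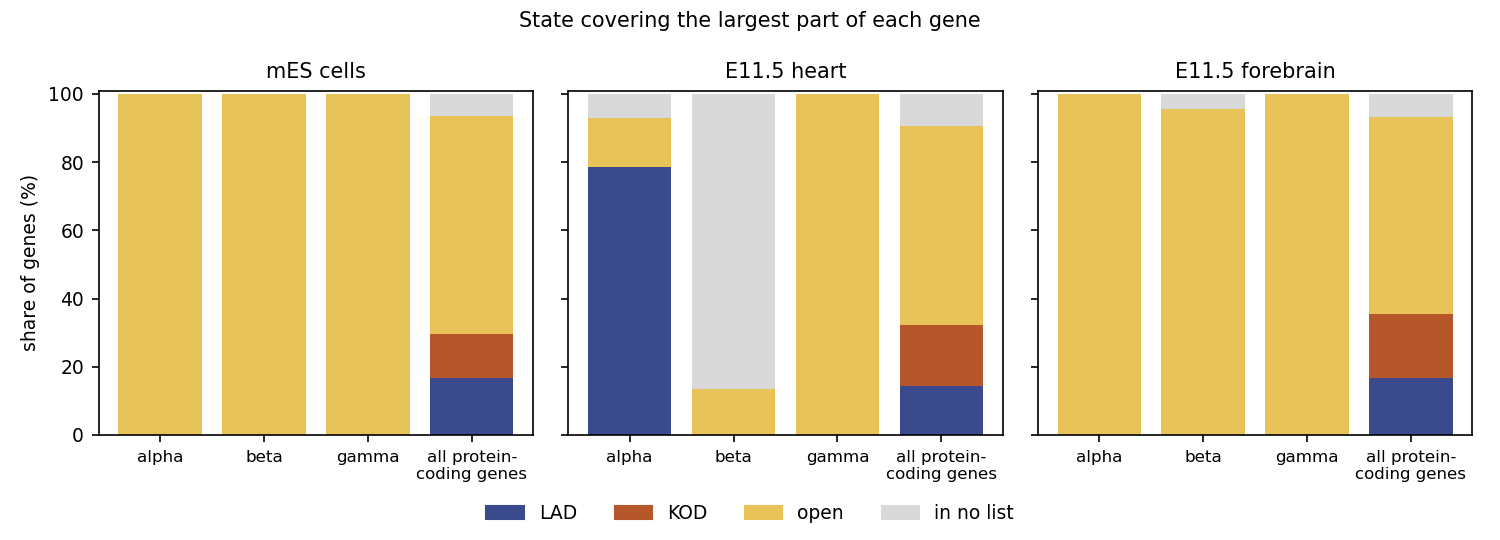
Share of genes in each state, by the state with the greatest share of the gene body, for the 14 alpha, 22 beta and 21 gamma genes and all 20540 protein-coding genes, with 1 panel per source. All members are open in mES cells, while in heart 78.6% of alpha genes are LAD and 86.4% of beta genes are unlisted.

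The alpha cluster spans 36930285 to 37188897 and starts with a tight row of variable exons. The lower ends of Pcdha1 to Pcdha12 all lie between 36930285 and 37020230. Then come Pcdhac1 at 37090136 and Pcdhac2 at 37143678, and 13 of the 14 genes end within 10 bases of each other. The annotation used gives no strand. Since the alpha genes share their upper ends and differ in their lower ends, the lower end is taken as the side of each gene's own first exon.

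In all 3 sources the row from Pcdha1 to Pcdha12 began in an open domain. It was 180 kb long in mES cells (36870001 to 37050000), 160 kb in forebrain (36890001 to 37050000) and 110 kb in heart (36930001 to 37040000). The heart domain began in the very bin that holds the lower end of Pcdha1. All 12 of these lower ends were thus in open bins in each source.

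Beyond Pcdha12 the sources parted. A LAD lay over the interval that leads to Pcdhac1 in both tissues and began at the same bin, 37060001. In forebrain it ended at 37110000, was 50 kb long and held the lower end of Pcdhac1. In heart it ended at 37160000, was 100 kb long and held the lower ends of Pcdhac1 and Pcdhac2. In mES cells the bins from 37050001 to 37100000 were unlisted, and Pcdhac2 was open. The bin of Pcdhac1 was therefore unlisted in mES cells and LAD in both tissues, and that of Pcdhac2 was open in mES cells and forebrain and LAD in heart.

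Since every alpha gene body runs on to the shared upper end, this stretch is counted in the body of 13 or all 14 alpha genes, depending on the source. The 11 members counted as LAD in heart were Pcdha3 to Pcdha12 and Pcdhac1, and they share this 1 LAD. The LAD share of the body in heart was 38.9% for Pcdha1, where 42.6% was open, 41.4% for Pcdha3, 59.7% for Pcdha12 and 71.6% for Pcdhac1. The LAD is the same stretch for all of them, and the bodies get shorter along the row. Pcdhac2 was 37.1% LAD and 62.9% unlisted in heart. Both Pcdha1 and Pcdha2 were open in heart by a narrow margin, with 40.6% open against 40.2% LAD for Pcdha2.

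In forebrain the same share ran from 19.4% for Pcdha1 to 29.9% for Pcdha12, was 20.4% for Pcdhac1 and was 0 for Pcdhac2, which was 100% open. In mES cells it was 0 for all 14 genes. The open share of the alpha bodies in mES cells ranged from 70.1% to 100%, with a median of 77.7%, and the remainder was unlisted. In heart the median open share was 27.7%.

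**Figure D3:**
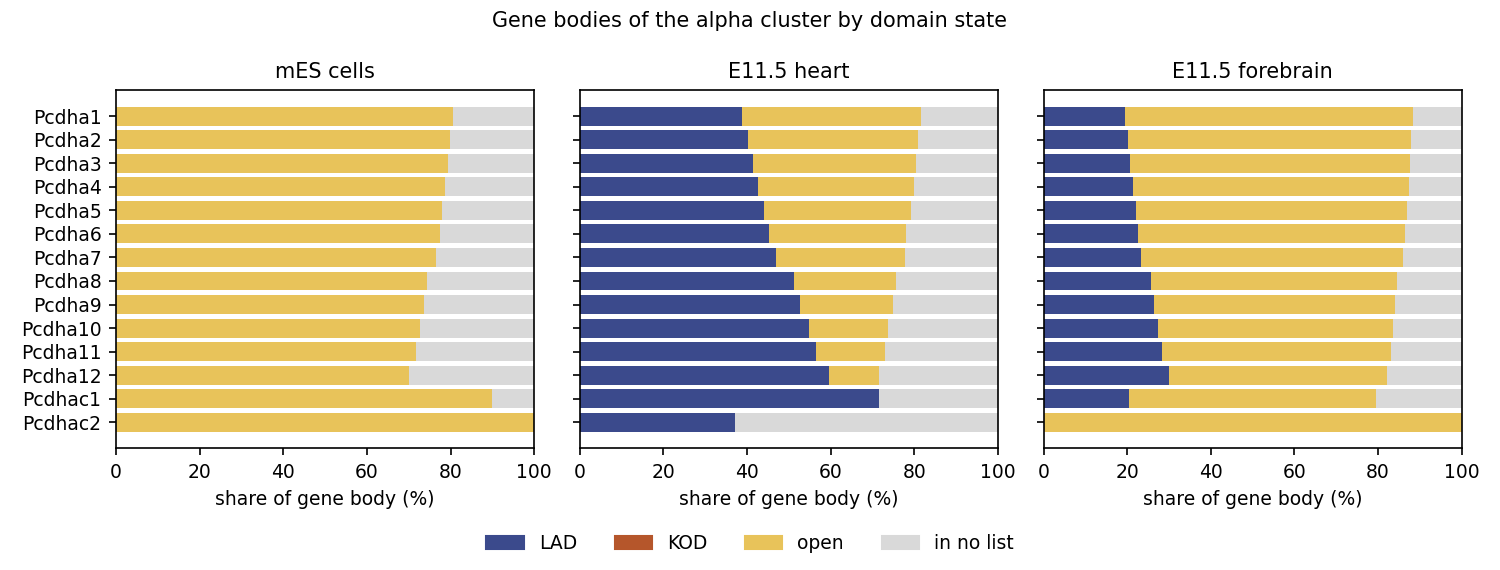
Share of each alpha gene body in each state, one bar per gene in chromosome order, with 1 panel per source. The LAD share in heart climbs from 38.9% for Pcdha1 to 71.6% for Pcdhac1, and that of forebrain stays at or under 29.9%.

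The count of 11 depends on how a gene is read. By the bin of the lower end only 2 members, Pcdhac1 and Pcdhac2, were LAD in heart and 1, Pcdhac1, in forebrain. By the segment from one lower end to the next, 3 members were LAD in heart and 1 in forebrain, and with 20 kb trimmed from both ends of every domain 1 was LAD in heart. No member was LAD over at least 80% of its body. By the midpoint of the body, 12 members were LAD in heart and 11 in forebrain.

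Of the 13134 genes open in mES cells, 151 were LAD in heart, or 1.15%, and 11 of those 151 were these alpha genes. Open in mES cells and forebrain but LAD in heart were 58 genes, of which the same 11 are part. The alpha genes thus enter such counts as many neighbours in 1 domain, not as separate events.

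The beta cluster spans 37264998 to 37521419 and holds genes of 2.34 to 5.27 kb. In mES cells all 22 genes were open over their whole body, beside 59.4% of all protein-coding genes. The 22 lay within 1 open domain from 37100001 to 37560000. In forebrain 21 were wholly open, beside 51.4% of all genes, and these, Pcdhb2 to Pcdhb22, lay in the domain from 37270001 to 37540000. The exception was the first gene, Pcdhb1, whose 10 kb bin was unlisted there.

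In heart 18 of the 22 beta genes were unlisted over their whole body, beside 6.52% of all protein-coding genes. By the largest part of the body 19 were unlisted, beside 9.44%. Pcdhb22, the last gene, was 46.3% LAD and otherwise unlisted. Pcdhb12, Pcdhb13 and Pcdhb14 were the only open beta genes in heart, over 100%, 100% and 68.2% of their bodies, in an open domain of 20 kb from 37430001 to 37450000. That domain was short: 84.8% of the heart's open domains were at least as long.

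On its 2 sides lay unlisted runs of 140 and 70 kb. The longer, from 37290001 to 37430000, held the lower ends of 10 genes, Pcdhb2 to Pcdhb11, and 8.52% of all unlisted runs of the heart were at least as long. The run from 37450001 to 37520000 held 8, Pcdhb15 to Pcdhb22. A LAD of 20 kb from 37270001 to 37290000 lay between Pcdhb1 and Pcdhb2, and held no lower end. The bin of Pcdhb1 was the last of an unlisted run of 110 kb that began at 37160001, within the alpha cluster.

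Beta genes resemble one another in sequence, and reads that fit several copies can be lost or misplaced. How far this bears on the unlisted heart bins was not tested. Of the 27 beta bins, 21 were open in both mES cells and forebrain while unlisted in heart, and the sequencing depth of each source is unknown. What an unlisted bin held, a mixed signal, a weak signal or few reads, was not given in the sources used here.

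The gamma cluster spans 37661775 to 37841873. All 21 genes, from Pcdhga1 to Pcdhgc5, were open over 100% of their bodies in mES cells and in heart, beside 59.4% and 51.6% of all genes. In forebrain 19 were, beside 51.4% of all genes, and Pcdhga1 and Pcdhga2 were open over 95.4% and 99.4%. The difference was a KOD of 1 bin from 37660001 to 37670000, which holds the lower ends of both genes. At 10 kb it has the shortest length a domain can have. The c-type genes Pcdhgc3, Pcdhgc4 and Pcdhgc5 were wholly open in every source, unlike Pcdhac1 and Pcdhac2 of the alpha cluster.

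The gamma genes lay in long open domains that ran on past the cluster. That of mES cells spanned 37590001 to 38680000, 1090 kb, that of heart 37620001 to 38680000, 1060 kb, and that of forebrain 37670001 to 39270000, 1600 kb. Of all open domains in the same source, 1.56%, 0.98% and 0.536% were at least as long. The domains of mES cells and heart ended at the same bin.

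The intervals between the clusters also differed among the sources. The 7 bins between the alpha and beta clusters were all open in mES cells, 5 were open in forebrain, and all 7 were unlisted in heart. Of the 13 bins between the beta and gamma clusters 10 were open in mES cells, 7 in forebrain and 4 in heart, while 8 were LAD in heart and 4 in forebrain. These formed a LAD of 90 kb in heart, from 37520001 to 37610000 and reaching into the last beta bin, and of 40 kb in forebrain, from 37560001 to 37600000. In mES cells the bins from 37560001 to 37590000 were unlisted.

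The 200 kb beyond Pcdhgc5 were open in all 20 bins of each source. In the 200 kb before Pcdha1, 18 bins were open in mES cells, 15 in forebrain and 10 in heart, where 2 were LAD and 8 unlisted. Counted around each cluster on its own, with 200 kb on both sides that partly hold the neighbouring cluster, the open share was 89.4%, 31.8% and 75.8% for alpha in mES cells, heart and forebrain. For beta it was 89.6%, 19.4% and 74.6%, and for gamma 94.9%, 72.9% and 88.1%.

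**Figure D4:**
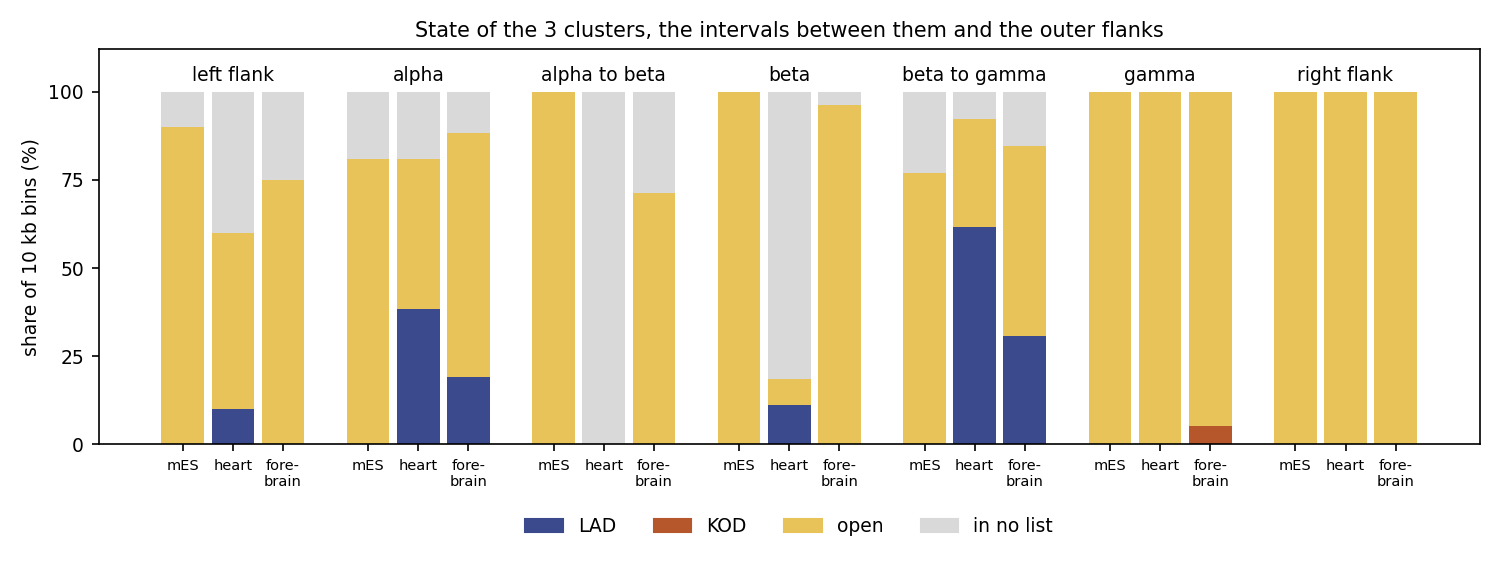
Share of 10 kb bins in each state, stacked, for the outer 200 kb flanks, the 3 clusters and the intervals between them, with 1 bar per source. The beta cluster is 100% open in mES cells, 96.3% in forebrain and 7.41% in heart, while the gamma cluster and the right flank are open in all 3 apart from 1 KOD bin in forebrain.

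The region holds 15 other protein-coding genes that lie wholly in the flanks or between the clusters, and all of them were open over their whole body in each source. A further 3, Gm37013, Gm38666 and Gm38667, run across the clusters and were open in mES cells and forebrain and unlisted in heart by the largest part of the body. To the left these are 8 genes, the nearest being Zmat2, Hars2 and Hars, the last of which encodes the histidyl-tRNA synthetase of the cytoplasm. Between the beta and gamma clusters lie Slc25a2, a mitochondrial ornithine carrier, and Taf7, a subunit of the general transcription factor TFIID. To the right are 5 genes, the nearest being Diaph1, an actin-nucleating formin, Hdac3, a histone deacetylase, and Rell2. The open domain of Slc25a2 and Taf7 in heart begins at 37620001, and 1 unlisted bin separates it from the LAD that ends at 37610000. The left genes end 131 kb or more from Pcdha1.

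Where the lower ends of the genes lay relative to the LADs was compared next, a property that the choice of members did not use. In heart the 21 LAD bins of the locus held 2 lower ends, the 35 unlisted bins held 19 and the 36 open bins held 36. Per 100 kb this is 0.952, 5.43 and 10. In forebrain the 9 LAD bins held 1 and the 74 open bins 53, which is 1.11 and 7.16 per 100 kb. The 8 unlisted bins there held 1, or 1.25 per 100 kb, and the single KOD bin held 2. In mES cells the 84 open bins held 56 and the 8 unlisted bins 1. The LADs of both tissues held few lower ends, and so did the unlisted bins of forebrain. LADs were also poor in genes over chromosomes 1 to 19, by the largest part of the gene body. In heart LADs covered 40.1% of bins and 14.3% of genes, and open domains 29.8% of bins and 58.4% of genes. In forebrain LADs covered 44% of bins and 16.6% of genes, and open domains 31.1% and 57.7%. Whether the locus departs from this general difference was not tested. From Pcdha12 to Pcdhac1, 69.9 kb, 30.1 kb were LAD in both tissues. From Pcdhac1 to Pcdhac2, 53.5 kb, all was LAD in heart and 19.9 kb in forebrain. From Pcdhb22 to Pcdhga1, 143 kb, 90 kb were LAD in heart and 40 kb in forebrain. The interval from Pcdhac2 to Pcdhb1, 121 kb, was mostly unlisted in heart, with 16.3 kb LAD, and had 0 kb LAD in forebrain. From Pcdhb1 to Pcdhb2, 29.8 kb, 20 kb were LAD in heart and 0 in forebrain. The other 3 intervals of at least 20 kb held no LAD in any source. Of these, the 45.6 kb from Pcdhb8 to Pcdhb9 were unlisted in heart and open in forebrain, and the 40.8 kb from Pcdhga12 to Pcdhgc3 were open in all sources.

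The unlisted stretches of mES cells in the locus and its flanks overlapped LADs of heart, and not all of them overlapped LADs of forebrain. The locus and its flanks had 3 such stretches with 10 bins in all, each with open domains on both sides. Of these bins 9 were LAD in heart and 7 in forebrain, and the others were unlisted. All 3 stretches touched a heart LAD, among them the one in the left flank, where the heart LAD from 36850001 to 36870000 covered the same bins, and 2 touched a forebrain LAD. Over the 19 autosomes mES cells had 339 unlisted stretches between open domains. A heart LAD was touched by 27.4% of them, a forebrain LAD by 38.1%, and 22.4% had a bin that was LAD in both.

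From mES cells to heart, 11 of the 37 members listed in both maps had another state, which is 29.7%, compared with 19.6% of all protein-coding genes listed in both. With unlisted counted as a state, 31 of the 57 differed, compared with 26.4% of all genes. By the bin of the lower end 1 of those listed in both differed, Pcdhac2, and by the midpoint 2 did. All 11 are alpha genes that went from open to LAD, and 20 members went from open to unlisted, compared with 4.57% of all genes that were open in mES cells.

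From mES cells to forebrain none of the 56 members listed in both differed, compared with 22.6% of all genes, and with unlisted as a state 1 differed, compared with 28.6%. By the bin of the lower end 2 differed, Pcdhga1 and Pcdhga2. Between forebrain and heart 11 of 37 differed, compared with 15.2% of all genes listed in both, and 30 of 57 with unlisted as a state, compared with 22.8%. These comparisons share maps with each other, and the members share domains, so their counts are not independent.

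Counts of bins avoid the repeated counting of shared bodies. Of the 84 locus bins open in mES cells, 74 were open in forebrain, which is 88.1% compared with 70.8% of all open mES bins. In heart 36 were open, or 42.9% compared with 71.3%. Of the same 84 bins 14 were LAD in heart, 16.7% compared with 3.15%, and 34 were unlisted, 40.5% compared with 7.84%. None became KOD in heart, compared with 17.7% of all open mES bins. The pattern open in mES cells, unlisted in heart and open in forebrain covered 310 kb of the locus, or 33.7%, and 1.18% of the whole map.

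Other protocadherins lie outside the clusters, and 11 of them are on the autosomes mapped. Pcdh1 and Pcdh12, which lie on chromosome 18 to the right of the gamma cluster, were wholly open in every source, in the same long open domain. The others had several patterns. Pcdh8 and Cdhr1 (Pcdh21) were open in mES cells and forebrain and unlisted in heart, the pattern of 18 of the 22 beta genes. They make up 18.2% of this list, compared with 1.68% of all genes with that pattern. Pcdh10 was unlisted in mES cells and heart and open in forebrain, and Pcdh18 was LAD in mES cells and unlisted in both tissues. In forebrain the margin for Pcdh18 was narrow, with 52.4% unlisted and 47.6% LAD. Pcdh15, a part of the hair-cell tip link, was wholly LAD in all sources. Pcdh9 and Pcdh20 were LAD in mES cells and forebrain and unlisted in heart, and Pcdh7 was LAD in mES cells and forebrain and open in heart. Pcdh17 was LAD in mES cells by a narrow margin, with 50.6% LAD and 49.4% unlisted. In forebrain it was 53.2% open and 29.3% LAD, and in heart it was unlisted. As a list, 6 of 11 were LAD in mES cells against 0 of the 57 clustered genes and 16.6% of all genes. In heart 7 of 11 were unlisted, as were 20 of the 57, beside 9.44% of all genes. No test was made of these differences.

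The Ugt1a genes of chromosome 1, which encode enzymes of glucuronidation and share the layout of variable first exons with common last exons, were KOD in 7 of 9 cases and unlisted in 2, with the same states in all 3 sources. Over all genes the KOD share was 19% for forebrain, 17.9% for heart and 13% for mES cells. The Ugt1a bodies overlap up to a nearly shared upper end, so the 9 genes are 1 locus and not separate cases. Among 5 type I cadherins, the classical adhesion molecules of tissue layers, none was LAD in any source by the largest part of the body. Of all genes, 14.3% were LAD in heart and 16.6% in each of the other sources. With only 5 genes, a count of 0 is not far from these shares. Cdh1, E-cadherin, went from open in mES cells to KOD in heart and forebrain. Cdh2, N-cadherin, was unlisted in mES cells, with 18.7% LAD, and wholly open in both tissues. Cdh3 was open in mES cells and heart and KOD in forebrain. Cdh4 was KOD in mES cells, unlisted in heart, with 32.3% LAD, and open in forebrain. Of the cadherins listed in both maps, 1 of 3 differed between mES cells and heart and 3 of 4 between mES cells and forebrain. For all genes these shares were 19.6% and 22.6%.

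Of 24 genes whose products act on the choice or silencing of protocadherin promoters, 22 were open in mES cells, 20 in forebrain and 22 in heart, beside 63.9%, 57.7% and 58.4% of all genes. Ctcf, Rad21, Smchd1 and Dnmt3b were among those open in all 3. Setdb1, which methylates H3K9, and the cohesin subunit Stag1 were open in mES cells and heart and KOD in forebrain, Tet3 was KOD in mES cells but open in heart and forebrain, and Tet2 was open in mES cells but unlisted in heart and forebrain. Lrif1, a partner of Smchd1, was LAD throughout. In all, 1 of 23 listed in both maps differed between mES cells and heart and 3 of 23 between mES cells and forebrain, beside 19.6% and 22.6% of all genes.

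Of 24 genes for partners of the proteins and the enzymes that cut them, 18 were open in mES cells, 15 in forebrain and 16 in heart, beside the same shares of all genes. Wasf2, a member of the actin-regulating WAVE family, Axin1 and the protease gene Adam10 went from open to KOD in both tissues. Ret, a receptor tyrosine kinase, went from KOD to open in both, and Src was KOD in forebrain only among these sources. Marcks was LAD in mES cells, open in heart and unlisted in forebrain. Between mES cells and heart 6 of 24 differed, which is 25%, and between mES cells and forebrain 5 of 23, which is 21.7%. Both shares are near those of all genes, 19.6% and 22.6%.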

How the data were processed

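H3K9me2, Lamin B1 and IgG were profiled by CUT&RUN in 33 libraries. The tools named in the submitters' processing notes are Bowtie2 2.5.0, deepTools, Picard, cutadapt 4.2 and Trim Galore, with the build mm10. The calling of domains was not given in the sources used here. The 9 deposited lists by the authors hold only a chromosome, a start and an end per domain in whole 10 kb bins, a unit other than counts, with the replicates of a source pooled, so depth and replicate error are unknown.

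Bins were given the state of their domain over chromosomes 1 to 19, between the outermost listed bins of each (2400 Mb), with Python 3.11.15 and numpy 2.4.6, and the step was tested on simulated maps. Genes came from RefSeq GRCm38.p6, the assembly behind mm10, and 125 wholly outside the mapped span were left out. A gene has the state covering the largest part of its body. The table gives no strand. No test was possible. Of the comparison lists, 11 of 13 non-clustered protocadherins, 24 of 27 regulators and all 24 partners, 9 Ugt1a genes and 5 cadherins were matched, the others being on chromosome X. Genes named are the ends of each cluster, the c-type genes, members or listed genes that differ between sources, at most 6 per list for the latter, and the nearest neighbours. Pcdh15, Pcdh1, Pcdh12, Pcdh20, Cdhr1, Ctcf, Rad21, Smchd1, Dnmt3b and Lrif1 were chosen after their states were seen. Members and lists were chosen with earlier results of these data known. No sequence of the locus is shown.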

Additional observations from a re-analysis of the deposited data

How the results depend on the processing

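Each list pools its replicates, so none was left out. No paired analysis was possible because the lists carry no replicates. Of 216 values under other settings, 158 stayed within 1.5 times the count, or within the 95% binomial interval over bins, and 58 moved. Some could not move, such as the LAD counts of Ugt1a genes and the LAD shares of the clusters in mES cells, which had no LAD bin to gain. The interval also treats neighbouring bins of 1 domain as independent, so the tally does not measure robustness. By the gene midpoint, 11 members were unlisted in mES cells, 11 were LAD and 2 unlisted in forebrain, and no partner gene was LAD in forebrain (0). Members listed in both that differed then numbered 2 from mES cells to heart, 1 to forebrain and 1 between the tissues, and 12 from mES cells to forebrain with unlisted as a state. By the lower end, 1 was unlisted in mES cells, 2 were LAD in heart and 1 in forebrain, and 1, 2 and 3 differed in the same order of pairs, with 4 for mES cells to forebrain with unlisted as a state. By the segment up to the next lower end, 1 was unlisted in mES cells, 3 were LAD in heart and 1 in forebrain, 2, 1 and 2 differed, and 3 did with unlisted as a state. With at least 80% of the body required, members short of that share were called mixed. Then 0 were LAD in heart, and 0 listed in both differed for heart against either source. With mixed and unlisted as states 3 differed from mES cells to forebrain. These were Pcdhb1, unlisted in forebrain, and Pcdha1 and Pcdhac1, which were open in mES cells and mixed in forebrain.

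With 20 kb trimmed from both ends of each domain, unlisted members numbered 2 in mES cells, 10 in forebrain and 35 in heart, 1 was LAD in heart, 1 differed between mES cells and heart and 0 between the tissues, and 8 did from mES cells to forebrain with unlisted as a state. Alpha bins were then unlisted at 50% in heart and 42.3% in forebrain and LAD at 3.85% in forebrain, and beta bins in heart were 0% LAD, 0% open and 100% unlisted. With unlisted gaps of at most 30 kb filled, 0 members were unlisted in forebrain, 0 differed from mES cells to forebrain, beta bins there were 100% open and 0% unlisted, and flank bins of mES cells 100% open. Over bins listed in all 3 sources, alpha was open at 100% in mES cells, 93.3% in forebrain and 73.3% in heart. Beta was open at 100% in forebrain and at 40% in heart, with 60% LAD in heart. For beta in heart these shares rest on 2 open and 3 LAD bins, whereas 11.1% of all 27 beta bins were LAD. Under this setting the flanks were open at 100% in each source. Of cluster bins 17.9%, 5.13% and 17.9% differed between mES cells and heart, mES cells and forebrain, and the tissues. The flanks were open in heart at 50% with 100 kb and at 89% with 500 kb. Trimming removes short domains, such as that over Pcdhb12 to Pcdhb14, by construction. Keeping only bins listed in all 3 sources likewise fixes mES cells at 100% open, as the clusters and flanks held no LAD or KOD bin there. It also drops the 2 LAD bins of heart in the flanks, which were unlisted in mES cells, so the flank values are fixed too. The gamma cluster values in the table stayed as they were or within the interval.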

Other observations

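Genes Gm37013, Gm38666 and Gm38667, annotated as protein-coding and listed under synonyms that join an alpha gene name with a g (such as Pcdha4-g), start beside alpha genes and end with the gamma genes at 37841873 on chromosome 18, so they span nearly the whole locus. They are not members. All were open over the greatest share of the body in mES cells (91%, 90.8% and 90.8%) and in forebrain (79.8%, 79.4% and 79.3%). In heart none reached 50%. Gm37013 was 39.4% unlisted, 37% open and 23.6% LAD there, Gm38666 40% unlisted, 35.9% open and 24% LAD, and Gm38667 40.3% unlisted, 35.5% open and 24.2% LAD.

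Chromosome 18 as a whole did not share the unlisted excess of the locus in heart. Unlisted bins made up 7.16% of that chromosome in heart, 8.01% in forebrain and 5.52% in mES cells, compared with 38%, 8.7% and 8.7% of the locus. Distances to domain borders differed too. The lower ends of 56 members lay at least 20 kb from a border in mES cells, 48 in forebrain and 40 in heart, with median distances of 104, 55 and 35 kb, a description with no test.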
